A study of Mus musculus with 6 samples.

Results

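The transcripts described here belong to the p53 pathway: 10 genes (Trp53, Mdm2, Cdkn1a, Ccng1, Bbc3, Bax, Pmaip1, Zmat3, Phlda3 and Trp53inp1) chosen by symbol, with every probe set that the platform annotation gave to 1 of these symbols alone. A total of 14 probe sets of 8 genes met this rule, of 45037 probe sets of 18193 genes on the array. No probe set carried Trp53 or Bax as its only symbol, and these 2 genes were not analysed here.

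RNA was measured on 6 Affymetrix mouse arrays from mouse embryonic stem (ES) cells. Induced cells had spent 24 h without tetracycline (3 arrays, clones A1, B3 and C6), and uninduced cells, at 0 h, still had it (3 arrays, the same clones). All clones derived from the EBRTcH3 line, were kept with LIF, and carried the human GTF2I coding sequence with a 3xFLAG tag at Rosa26, behind a promoter held off by tetracycline. GTF2I encodes TFII-I, a transcription factor of the Williams-Beuren syndrome region, and the comparison asks what its induction does to the endogenous genes. One characteristics label names GTF2IRD2 instead, and the titles, which name GTF2I, were followed. Each clone is 1 clonal line with 1 array per state, and the loss of tetracycline and the presence of the transgene cannot be told apart in this design. In bulk RNA, fewer cells of a type and less RNA per cell cannot be told apart either.

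On the log2 scale, medians of the arrays were 5.06 to 5.11. All 10 ES cell markers measured lay above the upper quartile of every array, with a list mean of 11.97 to 12.23 in induced and 12.11 to 12.12 in uninduced arrays. None of the 10 fibroblast markers and none of the 9 measured markers of differentiated lineages did, with list means of 4.59 to 4.69 in induced and 4.58 to 4.66 in uninduced arrays for the fibroblast list, and of 5.15 to 5.24 in induced and 5.19 to 5.25 in uninduced arrays for the lineage list. The difference between the 3′ and 5′ control probe sets of beta-actin, a measure of RNA integrity, was 0.40, 0.58 and 0.47 in the induced A1, B3 and C6 arrays and 0.38, 0.35 and 0.43 in the uninduced ones. For the transferrin receptor it was 1.75, 2.11 and 1.74 against 1.32, 1.68 and 1.85. For 18S RNA it was 0.72, 0.68 and 1.11 against 1.24, 1.43 and 1.03. Pyruvate carboxylase gave 1.02 to 1.36 in induced and 1.14 to 1.61 in uninduced arrays, and Gapdh 0.06 to 0.14 and 0.07 to 0.15.

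p53, the product of Trp53, is a transcription factor that is stabilised by DNA damage and other stress, binds paired decamers in DNA and switches on genes for cell cycle arrest, apoptosis and its own restraint. Mdm2, a ubiquitin ligase that p53 itself induces, sends p53 to degradation and closes a feedback loop. In ES cells p53 is also known for repressing Nanog and favouring differentiation.

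Promoter sequences are shown for the 3 genes in which a pair of p53 decamers was found near an annotated RefSeq transcription start. The window ran from 250 bases before to 50 bases after the start (assembly GRCm38.p6). The Bbc3 probe set and 1 of the 2 Cdkn1a probe sets carry the clone differences described below, while no Ccng1 probe set passed that test. Capitals mark the paired decamers, and 80 bases are given, 5′ to 3′ on the strand of the gene. The Bbc3 stretch is chr7:16309456-16309535, plus strand, the Ccng1 stretch is chr11:40755432-40755511, minus strand, and the Cdkn1a stretch is chr17:29090898-29090977, plus strand.
Bbc3: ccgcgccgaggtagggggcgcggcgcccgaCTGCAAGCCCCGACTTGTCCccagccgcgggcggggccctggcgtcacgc
Ccng1: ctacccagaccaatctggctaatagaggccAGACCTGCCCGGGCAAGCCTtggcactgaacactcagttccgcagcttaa
Cdkn1a: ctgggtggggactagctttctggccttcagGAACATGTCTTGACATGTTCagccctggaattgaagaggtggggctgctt

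The search allowed at most 3 mismatches to the p53 consensus over the 20 bases, at most 1 base between the decamers, and required the central C and G of each decamer. The consensus is its own reverse complement, so both strands were read at once. The Ccng1 and Cdkn1a pairs had 1 mismatch each and the Bbc3 pair had 3. The Bbc3 pair lay 97 to 78 bases before the start in 1 of 3 windows, the Ccng1 pair 195 to 176 bases before the start in its only window, and the Cdkn1a pair 51 to 32 bases before the start in 1 of 2 windows. Of all 32851 promoter windows, 928 (2.82%) held a pair with at most 3 mismatches and 36 (0.11%) one with at most 1. The Mdm2 window held at least 1 decamer without a mismatch but no pair, and the Phlda3 window neither. No window was searched for Zmat3, Trp53inp1 or Pmaip1, so nothing can be said of a pair there. A match of letters is a description and does not show that p53 binds there.

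None of the 14 probe sets passed the comparison of induced with uninduced cells over the 3 clones. The estimates ran between -0.31 for Bbc3 and 0.18 for a Cdkn1a probe set on the log2 scale, 4 above 0 and 10 below, and the smallest unadjusted p was 0.239 (limma, smallest adjusted p = 1.00). Over the whole array limma called 0 of 45037 probe sets (0%) at an adjusted p of 0.05, 436 had an unadjusted p under 0.05, and the methods' t-test also called 0 after adjustment, with 867 under 0.05 before it. With the clone as a block, limma again called 0 probe sets (0%), none of the 14 among them. The induced and uninduced arrays did not separate for any of the 14, against 4.55% of all probe sets. Within the clones, however, most of these genes ran one way in A1 and the other way in both B3 and C6, which the plot of values by array shows.

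**Figure D1:**
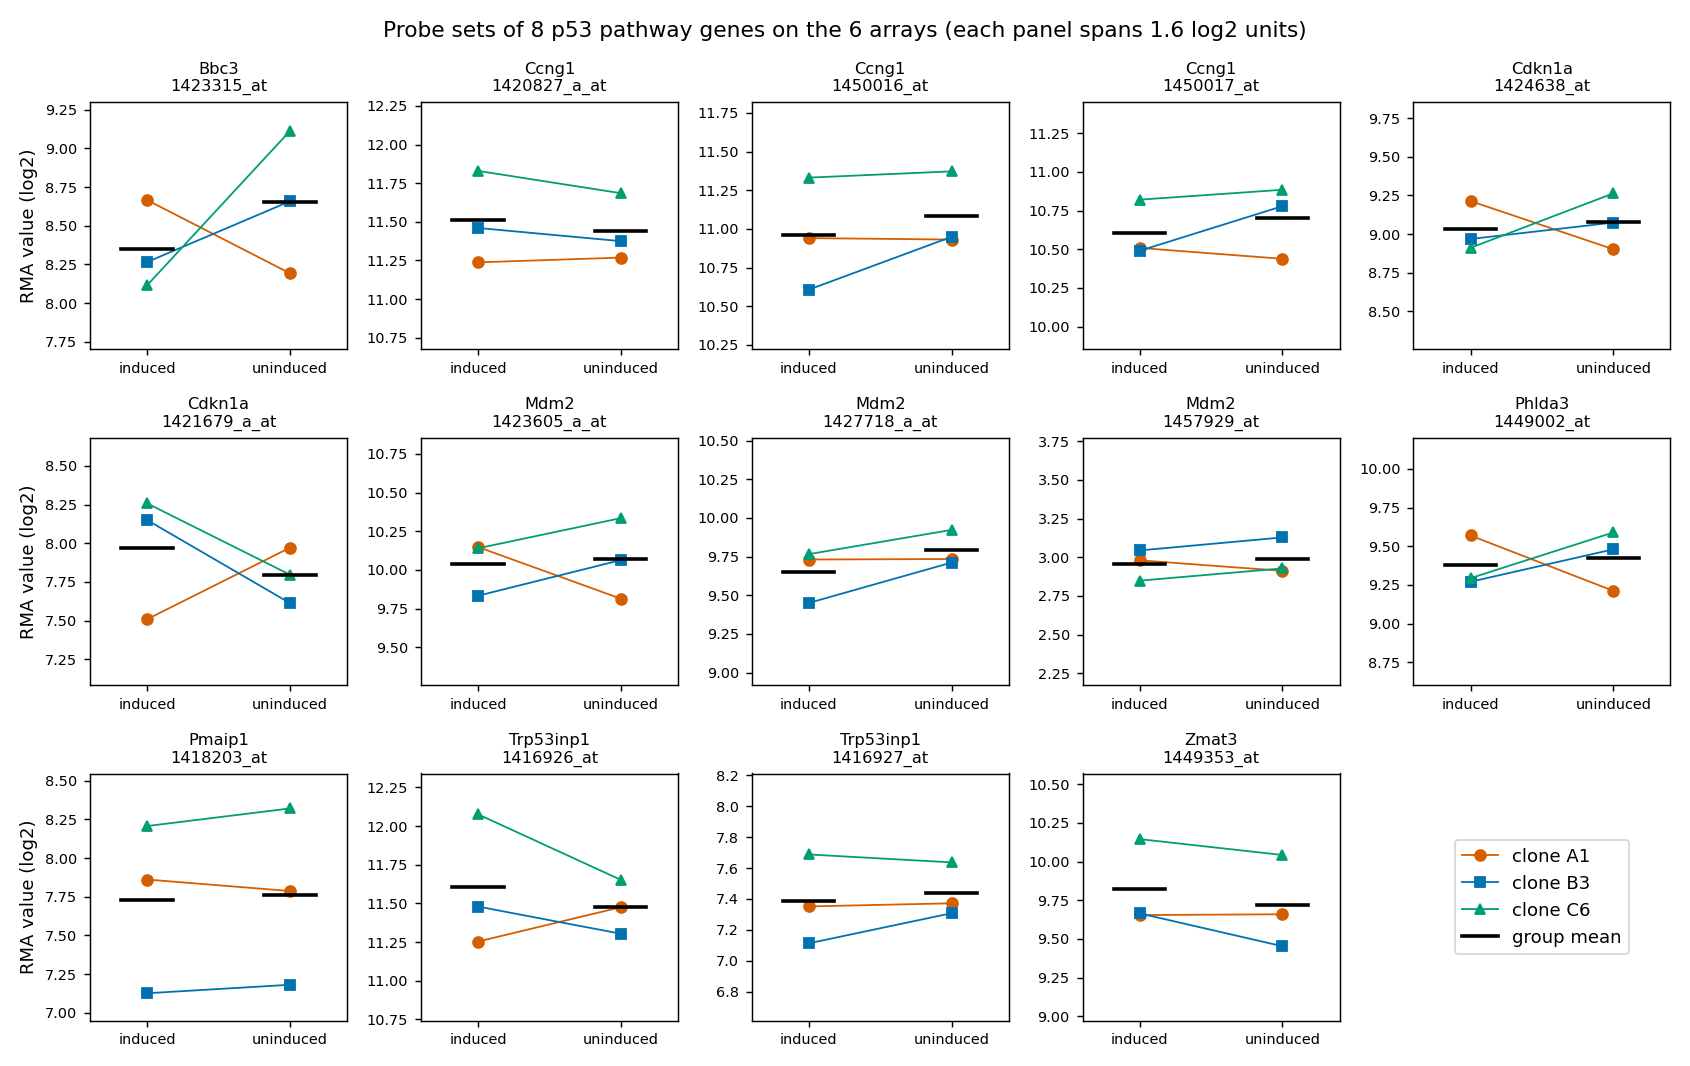
RMA values (log2) of the 14 probe sets of 8 p53 pathway genes, 1 point per array, with lines joining the induced array (left) and the uninduced array (right) of each clone and bars at the group means. The induced and uninduced points overlap in every panel, and the A1 line often crosses those of B3 and C6.

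The restraint of p53 was represented by Mdm2, measured with 3 probe sets. The first (1423605_a_at) read 10.15, 9.83 and 10.14 in the induced A1, B3 and C6 arrays, against 9.81, 10.06 and 10.33 in the uninduced ones. Induced A1 stood above uninduced A1 by 0.33, whereas induced B3 and C6 stood below their uninduced arrays by 0.23 and 0.20, and the groups overlapped. The mean difference was -0.03 ± 0.16 (SE, n = 3 per group; 95% interval -0.39 to 0.33).

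The second Mdm2 probe set (1427718_a_at) read 9.73, 9.45 and 9.77 in induced and 9.73, 9.71 and 9.92 in uninduced arrays of A1, B3 and C6. It was the only one of the 14 with the same direction in all 3 clones, although the A1 arrays differed by -0.003, and its mean difference was -0.14 ± 0.12 (SE; 95% interval -0.42 to 0.14). The third (1457929_at) was dim, with a mean of 2.97 over the 6 arrays, and differed by 0.07, -0.08 and -0.08.

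Among the genes that slow the cell cycle, Cdkn1a encodes p21, the inhibitor of cyclin-dependent kinases through which p53 arrests cells in G1. Its brighter probe set (1424638_at) read 9.21, 8.97 and 8.91 in the induced A1, B3 and C6 arrays, against 8.90, 9.07 and 9.26 in the uninduced ones. The induced array was the higher one in A1 and the lower one in B3 and C6, and the groups overlapped, with a mean difference of -0.05 ± 0.13 (SE; 95% interval -0.35 to 0.26).

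The other Cdkn1a probe set (1421679_a_at) read 7.51, 8.15 and 8.26 in induced arrays, against 7.97, 7.61 and 7.80 in uninduced arrays of A1, B3 and C6. Here the induced array was the lower one in A1 and the higher one in B3 and C6, with differences of -0.46, 0.54 and 0.46. The 2 Cdkn1a probe sets thus differed in opposite directions in each of the 3 clones. In Affymetrix naming the _a_at suffix marks a set that can read several transcripts of a gene. The probes were not placed on the transcripts here, so a direction for Cdkn1a as a gene cannot be given.

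Ccng1, the gene of cyclin G1, another p53 target that takes part in the control of Mdm2, was measured with 3 probe sets. The brightest (1420827_a_at) read 11.24, 11.46 and 11.83 in induced and 11.27, 11.38 and 11.69 in uninduced arrays of A1, B3 and C6, a mean difference of 0.07 ± 0.17 (SE). In both states C6 was the highest array and A1 the lowest. The other 2 probe sets (1450016_at and 1450017_at) differed by 0.01, -0.34 and -0.04 and by 0.07, -0.29 and -0.06 in the 3 clones, so B3 carried most of their mean differences of -0.12 and -0.09.

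Among the genes of apoptosis, Bbc3 encodes PUMA, a BH3-only protein that neutralises the anti-apoptotic BCL2 proteins at mitochondria. Its probe set (1423315_at) read 8.67, 8.27 and 8.11 in the induced A1, B3 and C6 arrays, against 8.19, 8.66 and 9.11 in the uninduced ones. A1 was the highest of the induced arrays and the lowest of the uninduced arrays, C6 the reverse, and the groups overlapped. The differences of 0.47, -0.39 and -0.998 gave a mean of -0.31 ± 0.24 (SE; 95% interval -0.86 to 0.25), the estimate farthest from 0 among the 14.

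Pmaip1 encodes NOXA, a second BH3-only protein, which acts mainly on MCL1. It read 7.86, 7.13 and 8.21 in the induced A1, B3 and C6 arrays, against 7.79, 7.18 and 8.32 in the uninduced ones. The order C6, A1, B3 was the same in both states, and the differences within clones (0.07, -0.05 and -0.11) were small beside it.

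The other 3 genes act around the p53 response. Phlda3, whose PH domain protein restrains the survival kinase AKT, read 9.57, 9.27 and 9.29 in the induced A1, B3 and C6 arrays, against 9.21, 9.48 and 9.59 in the uninduced ones. It followed Bbc3 in direction, with differences of 0.36, -0.21 and -0.30 and a mean of -0.05 ± 0.14 (SE). Zmat3, an RNA-binding zinc finger protein, read 9.65, 9.67 and 10.15 in induced and 9.66, 9.45 and 10.04 in uninduced arrays, with differences of -0.005, 0.21 and 0.10.

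Trp53inp1, a nuclear protein that is induced by stress and works with p53, had 2 probe sets. The brighter (1416926_at) read 11.25, 11.48 and 12.08 in induced and 11.48, 11.30 and 11.65 in uninduced arrays of A1, B3 and C6, and thus was lower after induction in A1 and higher in B3 and C6. The other (1416927_at) read 7.35, 7.11 and 7.69 in induced and 7.37, 7.31 and 7.64 in uninduced arrays, differences of -0.02, -0.19 and 0.05.

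**Figure D2:**
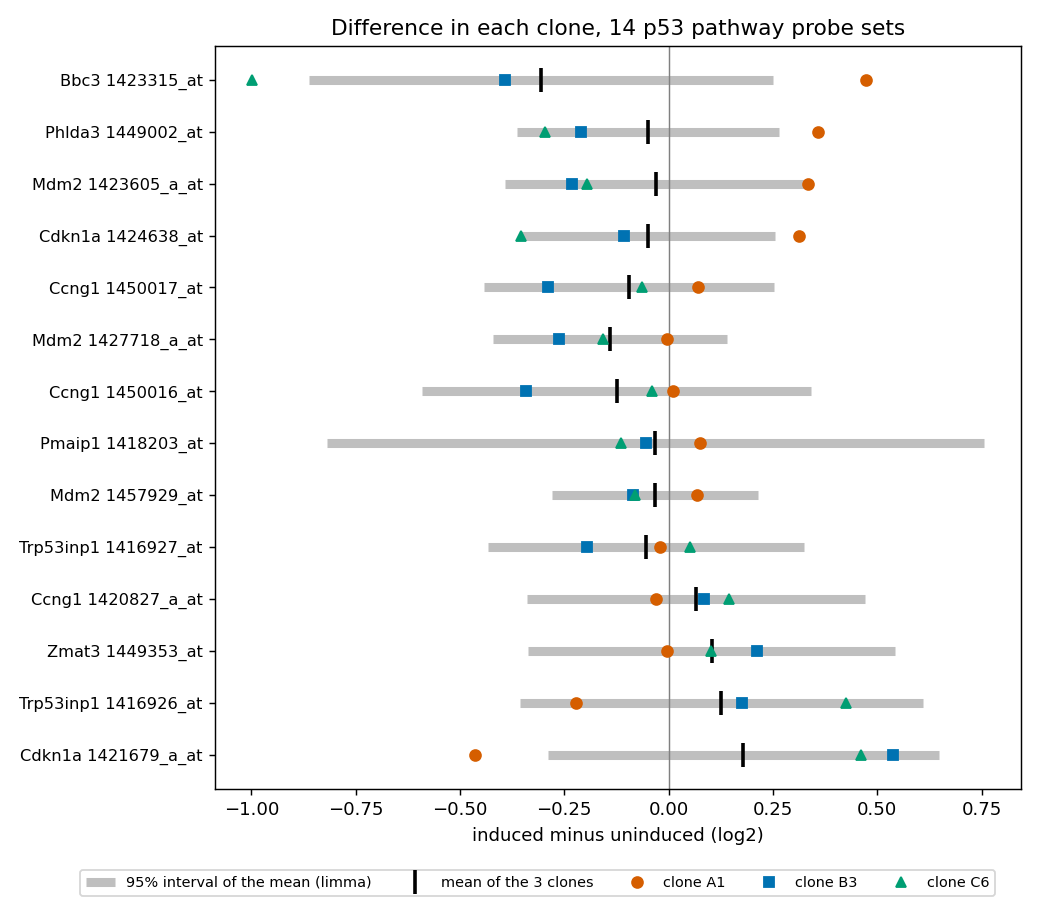
Induced minus uninduced difference (log2) of the 14 probe sets in clones A1, B3 and C6 (points), with the mean of the 3 clones (black tick) and its 95% interval from limma (grey bar). Every interval includes 0, and A1 lies on the other side of 0 from both B3 and C6 for 12 probe sets.

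The direction in A1 was opposite to that in both B3 and C6 for 12 of the 14 probe sets, 8 higher in A1 and 4 lower in A1. The margin was thin for 2 of them, since A1 differed by no more than 0.01 for Zmat3 and 1 Ccng1 probe set. Over the array, 41.6% of all probe sets, and 60.3% of those averaging 6 or more, showed A1 opposite to the other clones. The 14 were not tested against these shares. With 1 probe set per gene, the brightest, all 8 measured genes had A1 opposite, against 45.7% of 18193 genes and 60.8% of the 9561 genes averaging 6 or more, as all 8 do.

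The size of this clone difference was tested with limma on the 3 within-clone differences, A1 minus the mean of B3 and C6. Bbc3 was higher in A1 by 1.17 ± 0.25 (SE; 95% interval 0.60 to 1.74, adjusted p = 0.046), and the Cdkn1a probe set 1421679_a_at was lower in A1 by -0.96 ± 0.18 (SE; 95% interval -1.38 to -0.55, adjusted p = 0.032). These 2 of 14 compare with 2.71% of all probe sets (1.71% higher and 0.999% lower in A1). By the brightest probe set, 4.54% of genes averaging 6 or more passed, and 13 of the 14 average that much. A further 4 probe sets had an unadjusted p under 0.05 but missed the threshold: Phlda3 at 0.61 ± 0.18 (adjusted p = 0.12), Mdm2 1423605_a_at at 0.55 ± 0.18 (adjusted p = 0.16), Cdkn1a 1424638_at at 0.54 ± 0.20 (adjusted p = 0.20) and Trp53inp1 1416926_at at -0.52 ± 0.20 (adjusted p = 0.21). The remaining 8 lay between -0.16 and 0.25. The test takes its spread from B3 and C6 and from pooling over probe sets, so that A1 is assumed to vary as they do, and A1 was singled out with earlier results of these data known. On simulated data this test made more false calls than its threshold allows, so an adjusted p close to 0.05 is weak evidence here. The list mean of the 10 ES cell markers differed by 0.12 in A1, against -0.10 in B3 and -0.15 in C6. Of these markers 6 had A1 opposite to both, 4 higher in A1 and 2 lower. That is near the share of 60.8% among all genes averaging 6 or more. Esrrb, a pluripotency factor, differed by 0.51, -0.36 and -0.65 and Utf1, another, by 0.38, -0.31 and -0.40. Sox2 (-0.09, 0.06 and 0.02) and Dppa5a (-0.08, 0.10 and 0.12) ran the other way, and Zfp42, Tdgf1, Fgf4 and Klf4 did not split so. The part of ES cell state in the p53 pathway values was not tested. With each array centred on its median Bbc3 no longer passed (adjusted p = 0.0523), nor did it with 1 probe set per gene (adjusted p = 0.0547).

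In clones B3 and C6 alone, with the clone as a block, Bbc3 fell by 0.70 ± 0.15 on the log2 scale (SE, n = 2 per group, limma, adjusted p = 0.0473) and the Cdkn1a probe set 1421679_a_at rose by 0.50 ± 0.11 (adjusted p = 0.049). These were 2 of the 14, against 2.18% of all probe sets and, by the brightest probe set, 3.09% of genes averaging 6 or more. The same arrays gave -0.23 ± 0.11 for the other Cdkn1a probe set (adjusted p = 0.37). A1 was left out with earlier results of these data known. This fit also has 1 residual degree of freedom before pooling, and it was not tried on simulated data. It rests on the same B3 and C6 differences as the test of A1, so it is not separate support. The test of A1, run instead for B3 or for C6 against the other clones, called 0 probe sets on the array. It gave 432 and 1076 at an unadjusted p under 0.05, of which 0 and 1 were among the 14.

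**Figure D3:**
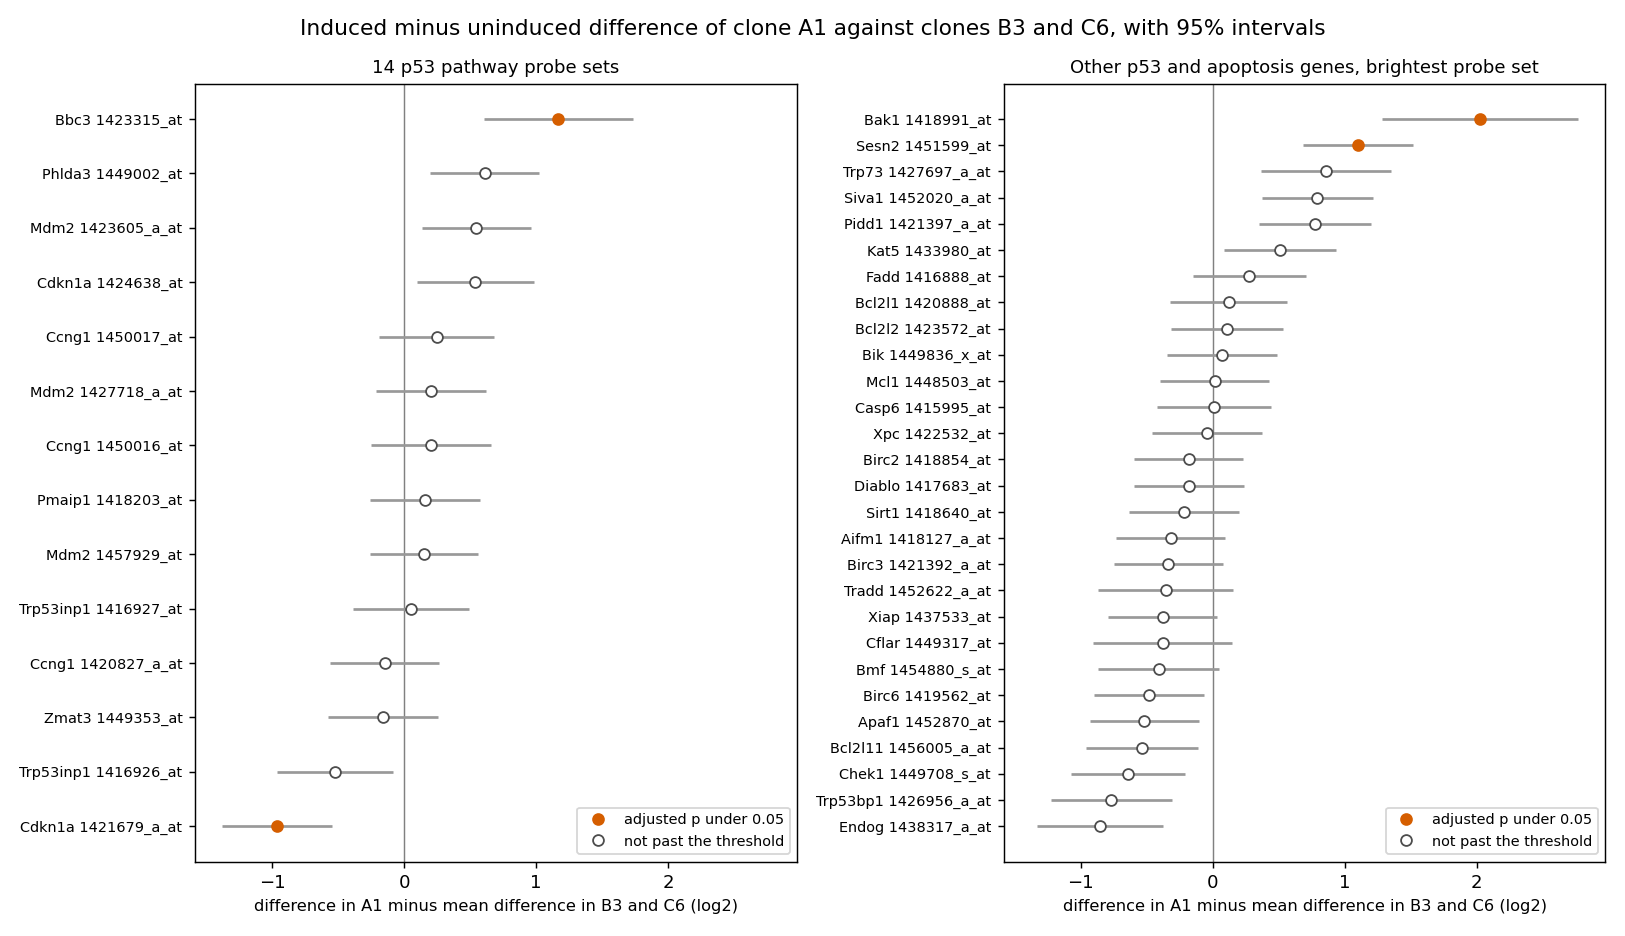
Difference in A1 minus the mean difference in B3 and C6 (log2, with 95% intervals from limma), for the 14 probe sets (left) and for the brightest probe set of 28 other p53 and apoptosis genes (right). Filled points passed an adjusted p of 0.05: Bbc3, Bak1 and Sesn2 to the right of 0 and 1 Cdkn1a probe set to the left.

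A second pattern concerned the level in each clone whatever the state. Pmaip1 averaged 8.26 in C6, 7.15 in B3 and 7.82 in A1 over the 2 arrays of a clone, and was the 1 probe set of the 14 with a difference among clones (limma F-test, adjusted p = 0.025), against 1.13% of all probe sets. C6 stood above B3 by 1.11 ± 0.12 (SE, adjusted p = 0.030), while C6 against A1 (0.44, adjusted p = 0.23) and B3 against A1 (-0.67, adjusted p = 0.0586) did not pass. Tested among probe sets averaging 6 or more, the F-test of Pmaip1 missed the threshold (adjusted p = 0.0572), and so did C6 against B3 (adjusted p = 0.0748). This comparison was added after the data were seen.

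Zmat3 averaged 10.09 in C6, 9.56 in B3 and 9.66 in A1 (F-test, adjusted p = 0.16). The brightest Ccng1 probe set averaged 11.76, 11.42 and 11.25 in the same order (adjusted p = 0.19), and Trp53inp1 1416926_at 11.86, 11.39 and 11.36 (adjusted p = 0.33). C6 had the highest level for 13 of the 14 probe sets, the exception being the dim Mdm2 set, against 13505 of all 45037 probe sets. The probe sets of a gene share its RNA and all share the same 2 arrays of C6, so these 13 are not independent.

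**Figure D4:**
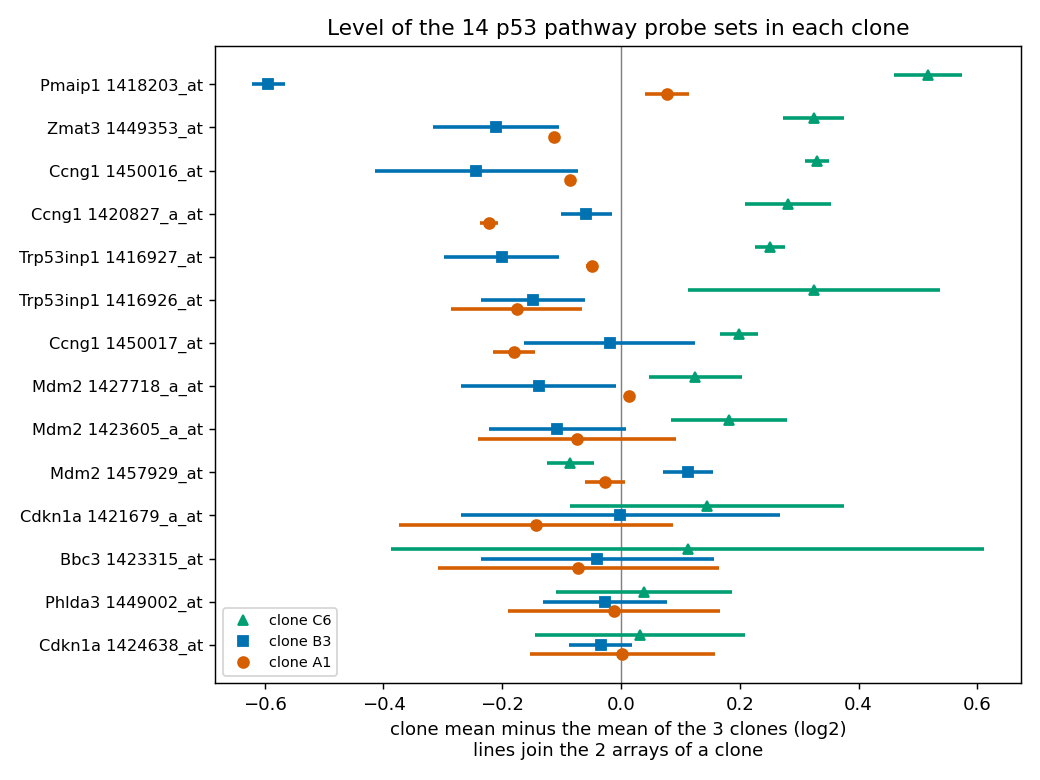
Mean level of each of the 14 probe sets in clones C6, B3 and A1, as the difference from the mean of the 3 clones (log2), with lines joining the induced and uninduced array of a clone. Pmaip1, at the top, ranges from B3 (7.15) to C6 (8.26), and its lines are short beside the distance between clones.

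Pmaip1 also had the widest range over the 6 arrays among those averaging 6 or more (1.20, against 0.36 to 0.998 for the others). The genes whose values followed it most closely across the 6 arrays, among 9560 genes, were Sec22b (Pearson r = 0.996), a SNARE protein of vesicle transport, Dnah8 (0.995), a dynein chain, Alad (0.992), an enzyme of haem synthesis, Ost4 (0.990), a subunit of the oligosaccharyltransferase, and Acad9 (0.990), a mitochondrial protein of complex I assembly. These points are 3 clones measured in both states, and 345 genes exceeded 0.9. Dnah8 read 6.50, 5.78 and 7.10 in induced and 6.53, 5.80 and 7.19 in uninduced A1, B3 and C6 arrays, the same clone order as Pmaip1.

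Other genes of the pathway were counted by their brightest probe set. Of 27 measured p53 targets of 28 listed, 14 were above and 13 below 0 over the 3 clones with a median difference of 0.00, and of 20 measured regulators and relatives of p53 of 21 listed, 10 were above and 10 below with a median of -0.00. The corresponding median over 18193 genes was -0.00, and that of the 8 genes described above -0.03. No listed gene passed the comparison over 3 clones.

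In the test of A1 against B3 and C6, 1 of the 27 targets passed, against 2.68% of all genes and 4.54% of those averaging 6 or more. It was Sesn2, the stress-induced inhibitor of the growth kinase complex mTORC1, which is a target of ATF4 as well as of p53. It read 9.38, 8.99 and 8.88 in the induced A1, B3 and C6 arrays, against 8.79, 9.46 and 9.44 in the uninduced ones. The induced array was the higher one in A1 and the lower one in B3 and C6, and the difference between them was 1.10 ± 0.18 (SE, adjusted p = 0.020). Its second probe set gave 1.07 (adjusted p = 0.033). In B3 and C6 alone, Sesn2 was the 1 of these 27 targets that passed, at -0.52 (adjusted p = 0.045). The share in either direction was 1.81% of all genes and 3.09% of those averaging 6 or more. Pidd1 and Siva1, which promote apoptosis downstream of p53, gave 0.78 (adjusted p = 0.0665) and 0.79 (adjusted p = 0.0613) in the A1 test and did not pass. Of the 4 Siva1 probe sets, 1 had the opposite sign.

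None of the regulators and relatives passed. Trp73, which encodes the p53 relative p73, gave 0.86 (adjusted p = 0.0766), and Trp53bp1, a DNA repair protein that binds p53, gave -0.77 (adjusted p = 0.0855). Of the 6 Trp53bp1 probe sets, 4 had the opposite sign to this brightest one. Chek1, a checkpoint kinase, gave -0.64 (adjusted p = 0.12).

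Of the 9 measured pro-apoptotic BCL2 family genes outside the 8 described above, 1, Bak1, passed the A1 test. The share was 2.68% of all genes and 4.54% of those averaging 6 or more. BAK1 opens the outer mitochondrial membrane when BH3-only proteins such as PUMA act. It read 8.54, 7.93 and 6.65 in the induced A1, B3 and C6 arrays, against 7.77, 8.72 and 8.39 in the uninduced ones. Induced C6 was the lowest array by more than 1 log2 unit, and A1 alone was higher after induction. The difference of A1 from the other clones was 2.03 ± 0.33 (SE, adjusted p = 0.018), and in B3 and C6 alone Bak1 fell by 1.26 on the log2 scale (adjusted p = 0.016). There too it was the 1 of the 9 that passed, against 1.81% of all genes and 3.09% of those averaging 6 or more. Its second probe set (1425716_s_at) differed by 0.41, -1.11 and -1.07 in the 3 clones (A1 test, adjusted p = 0.0067). The brightest probe set of Bcl2l11, the gene of the BH3-only protein BIM, gave -0.53 in the A1 test (adjusted p = 0.19), opposite in sign to Bbc3 and Bak1. Of the 5 Bcl2l11 probe sets, however, 3 had the other sign, so the direction of the gene is unsettled.

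The brightest probe sets of the 5 anti-apoptotic BCL2 family genes all lay below 0 over the 3 clones, against 50.8% of all genes. Their median was -0.04 and none passed the threshold. Bcl2 lay at -0.003, and Bcl2 and Bcl2l10 were dim, with means of 5.77 and 4.65. Of the other probe sets, 2 of Bcl2l2, 3 of Mcl1 and 1 of Bcl2l1 lay above 0. Bcl2 1440770_at (0.11) and 1457687_at (0.08) did too, whereas Bcl2 1437122_at (-0.002) and 1443837_x_at (-0.11) did not. Mcl1 differed by -0.01 ± 0.09 (SE) and Bcl2l1, the gene of BCL-XL, by -0.14 ± 0.12. Of the 6 measured inhibitors of apoptosis, 5 lay above 0, against 8959 of all 18193 genes, with a median of 0.06. Birc6, a large ubiquitin ligase that binds caspases, gave 0.21 ± 0.16. Among the 11 measured caspases and genes of the mitochondrial pathway 6 lay above 0 and 5 below, and Endog, a mitochondrial nuclease, differed by -0.31, 0.73 and 0.36 in A1, B3 and C6 (A1 test, -0.85, adjusted p = 0.0711). The other Endog probe set had the opposite sign in that test (0.37, adjusted p = 0.46). Of the 8 measured death receptor genes 3 lay above 0 and 5 below, and Fadd, the receptor adaptor, differed by -0.12 ± 0.12. Beside Sesn2 and Bak1, the other 26 genes named from these lists had adjusted p values between 0.0613 and 0.99 in the A1 test.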

How the data were processed

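The authors summarised Affymetrix scans per probe set by robust multiarray averaging (RMA) and deposited log2 values, which were not normalised again here. Tools named in the submitters' processing notes are affy and RMA, with no version. Of 45101 probe sets 64 Affymetrix controls were left out. The platform annotation gave 1 gene symbol for 34945 of the 45037 tested, several for 932 and none for 9160, and only those with 1 symbol were named. Gene numbers of 34741 matched a RefSeq table of GRCm38.p6.

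Groups were compared with limma 3.58.1 in R 4.3.3 (two-sided, Benjamini-Hochberg over all probe sets, threshold 0.05) in place of the per-gene t-test of the methods, which was run as an alternative. The number of arrays limits the precision. The labels call the arrays biological replicates. Each clone gave an induced and an uninduced array, so clone numbers pair the samples (correlation of the deviations from the group means within a clone: A1 0.19, B3 0.53, C6 0.31). The clone as a block was an alternative because the methods name no pairing.

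The genes and lists were chosen with earlier results of these data known. The genes named were every probe set of the 10 genes, up to 3 genes of each other list with the smallest p in either test (mean of at least 6), and the 5 genes most correlated with the widest-ranging probe set. Scripts were tested on simulated data, where the test of A1 against B3 and C6, with 1 residual degree of freedom before pooling, made more false calls than its threshold allows. Promoter windows came from RefSeq and were searched for 5 of the 8 genes. Zmat3 and Trp53inp1 had no window, and chromosome 18, which holds Pmaip1, was left out for these genes.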

Additional observations from a re-analysis of the deposited data

Results flagged for a closer look

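The induced minus uninduced difference differed between clones for 2 probe sets, by the test of that difference itself (limma over all probe sets). Bbc3 differed by 0.47 in A1, against -0.39 in B3 and -0.998 in C6. For it, A1 minus the mean of B3 and C6 was 1.17 (adjusted p = 0.046). Its adjusted p was 0.0523 under median centring and 0.0547 with 1 probe set per gene. The Cdkn1a probe set 1421679_a_at differed by -0.46 in A1, against 0.54 in B3 and 0.46 in C6, which gave -0.96 (adjusted p = 0.032). The brighter Cdkn1a probe set (1424638_at) ran the opposite way in each clone, by 0.31, -0.11 and -0.35, and did not pass (0.54, adjusted p = 0.20). The adjusted p values of the 2 flagged probe sets lie near the threshold of a test that made too many false calls on simulated data. The cause of these 2 differences was not tested.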

How the results depend on the processing

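For induced against uninduced cells, every alternative over all 3 clones gave 0 called probe sets, the paired fit with the replicate block (0), the methods' t-test and the threshold of 0.1 included. Leaving out single arrays or clones gave between 0 and 981 called probe sets and between 0 and 2 of the 14. The counts of 981 and 2 came from leaving out clone A1 with the rest as a replicate block. Of the single log2 differences under these alternatives, 41 changed sign with none past the threshold, and 2 passed it (Bbc3 and Cdkn1a 1421679_a_at without A1).

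For A1 against B3 and C6, 1219 called probe sets and 2 of the 14 became 2985 and 5 with a variance trend, 2355 and 3 among those averaging 6 or more, 458 and 0 for the brightest set of each gene (8 of the 14 tested), and 2642 at a threshold of 0.1. Median centring left 1 of the 14. The trend added Trp53inp1 1416926_at (adjusted p = 0.0223), Mdm2 1423605_a_at (0.0304) and Phlda3 (0.0277), and the limit of 6 added Phlda3 (0.0445). Without B3 or C6 that test has no residual degrees of freedom and was not run. Among clones, the same limit gave 108 called probe sets in place of 509, and 0 of the 14 in place of 1. The median of the other p53 targets was -0.04 with the mean of all probe sets of a gene, in place of 0.00. The 95% intervals are not adjusted for the number of probe sets, so they do not give the limit of detection of the adjusted tests.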

Other observations

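Some probe sets other than the brightest of a gene, picked after their values were seen, passed the test of A1 against B3 and C6. Of all probe sets on the array 2.71% passed it, and these picked sets were not compared with that share. Bcl2l1 1426191_a_at differed by 0.37, -0.60 and -0.93 in A1, B3 and C6 (1.13, limma adjusted p = 0.027) and Bcl2l1 1420887_a_at by 0.26, -0.66 and -0.76 (0.97, adjusted p = 0.031), while the brightest Bcl2l1 probe set gave 0.12 (adjusted p = 0.83). Mcl1 1416881_at gave 0.90 (adjusted p = 0.042), whereas Mcl1 1456243_x_at gave -0.81 (adjusted p = 0.0538) and the brightest Mcl1 probe set 0.02. Usp7, the deubiquitinase of p53 and MDM2, gave -1.80 with 1419921_s_at (adjusted p = 0.0036) and -0.15 with its brightest probe set (adjusted p = 0.78). The _s_at and _x_at suffixes mark probes that can read other transcripts as well, and probe sets of a gene that run opposite ways leave its direction unsettled.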
